A study of Mus musculus with 16 samples.

Results

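The TRIM (tripartite motif) family was followed across 16 RNA-seq libraries of mouse macrophages. A gene was taken as a member if its symbol was Trim followed by digits and at most 1 letter and if its mean over all 16 libraries was at least 1 CPM, the count scaled to a common library total. Of 68 such symbols among the 27179 genes of the count table, 40 met the threshold, 28 fell under it and 8 of those 28 had no read in any library. The members nearest the threshold were Trim66 at 1.19 CPM and Trim5 at 1.30 CPM, and the genes just under it were Trim2 at 0.544 CPM and Trim72 at 0.512 CPM. The cells were iBMDM MyD88-AGF, an immortalised line of bone-marrow-derived macrophages whose genotype is given as MyD88-AGF WT, so all groups carry the same modification and come from a single line. LPS (lipopolysaccharide, the bacterial glycolipid that TLR4 senses) was given at 10 ng/mL for 6 h. The 4 groups of 4 libraries were untreated cells, the ungated LPS-treated cells (the LPS pool), LPS-treated cells in a high side-scatter gate (responders) and LPS-treated cells in a low side-scatter gate (bystanders). The gated cells were sorted first and the pool afterwards, so gate and collection order cannot be told apart in comparisons with the pool. The untreated libraries are also labelled as an unsorted pool. In comparisons of either gate with untreated cells, sorting and LPS treatment therefore cannot be told apart. The labels name no separate cultures for the replicates, and p-values therefore reflect the spread among these particular libraries, which may be technical.

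TRIM proteins carry a RING finger, B-box zinc fingers and a coiled coil, followed by a C-terminal domain that picks the target. The RING makes most of them E3 ubiquitin ligases, enzymes that attach ubiquitin chains to other proteins and so mark them for destruction or build signalling platforms on them. Many members with a C-terminal SPRY domain are switched on by interferons and act in antiviral defence. They bind viral capsids, sense antibody-coated virus or tune the pathways that detect foreign RNA and DNA. Others have unrelated work: the TIF1 group (Trim24, Trim28, Trim33 and Trim66) acts on chromatin, the NHL-repeat group binds RNA and other partners, and the C-I group associates with microtubules.

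Total counts per library ran from 15287344 to 25193162. Macrophage markers summed to between 3691 and 3943 CPM in every library, while Cd3e, Ncr1, S100a9 and Ly6g, which mark lymphocytes and neutrophils, had no read in any. The 5 neutrophil markers together, S100a8, Mpo and Elane included, summed to 0.771 to 1.26 CPM in responders, 0.859 to 1.28 in the pool, 0.117 to 0.357 in bystanders and 0.210 to 0.293 in untreated cells. The lymphocyte list, of which only Cd79a had reads, stayed between 0.0654 and 0.629 CPM. A list of 12 neural markers summed to 104.9 to 129 CPM in untreated libraries, 46.1 to 63.3 in the pool, 55.7 to 68.9 in bystanders and 39.4 to 54.6 in responders, mostly from Mbp. Gap43, a neuronal growth gene, had 26 to 41 reads in 6 libraries (untreated 1, pool 3 and 4, bystander 3 and 4, responder 1) and 0 or 1 in the other 10. Fibroblast markers summed to between 1.98 and 98.8 CPM, with the highest sums in pool 3 and bystander 3. The 4 dendritic cell markers summed to 0.584 to 1.02 CPM in untreated cells, 3.09 to 4.91 in the pool, 7.14 to 8.43 in bystanders and 3.73 to 4.76 in responders. The part of these transcripts in the differences between groups was not tested, and values without the 6 libraries are given below where they bear on a result. In bulk samples, fewer cells of a type and less RNA per cell cannot be told apart.

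All 40 members passed the low-count filter of the fit, which left 12589 genes. Of these members, 5 had a group mean under 1 CPM: Trim5, Trim30b, Trim30c and Trim30d in untreated cells, and Trim66 in each LPS-treated group. The first 4 met the threshold through the LPS-treated groups, so a rise was built into their choice. Trim66 met it through untreated cells, so a fall was built into its choice. Per kilobase of annotated exons, the highest mean level over all groups was that of Trim25 at 93.5 CPM per kb, followed by Trim28 at 60.7 and Trim30a at 55.5, and the lowest was that of Trim66 at 0.112 CPM per kb. In untreated cells Trim28 led at 84.7 CPM per kb, whereas in bystanders Trim25 led at 154 CPM per kb. From here on, levels are CPM on library totals scaled by TMM (the trimmed mean of M-values), with mean ± SD over 4 libraries. A gene was called where edgeR's quasi-likelihood test gave an adjusted p under 0.05 (Benjamini-Hochberg, over every gene in the fit), and each adjusted p in the text comes from that test.

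LPS raised the interferon-linked TRIM genes and lowered the TIF1 group. In the LPS pool against untreated cells 35 members were called, 87.5% against 71.9% of all genes tested. Of these, 19 were higher, as were 34.1% of all genes, and 16 were lower, as were 37.8%. The libraries of the 2 groups did not overlap for 32 members, against 64.9% of all genes. At a fold of at least 2, 14 members were higher against 9.72% of all genes and 2 were lower against 3.74%, or 1 without pool replicate 3. The median log2 fold was 0.08 over the members and -0.03 over all genes tested. All 13 members of the interferon-linked list (Trim5, Trim12a, Trim12c, Trim14, Trim21, Trim25, Trim26, Trim30a, Trim30b, Trim30c, Trim30d, Trim34a and Trim56) rose, 12 of them at least 2-fold, with a median log2 fold of 2.85. The exception on size was Trim26, which rose by 0.91 on the log2 scale. The full list held 17 genes, of which Trim6, Trim34b, Trim38 and Trim69 fell under the threshold and were not tested. Trim6 had no read, and the others had group means of at most 0.469 CPM. With library totals in place of TMM, Trim14 (0.78), Trim25 (0.69) and Trim26 (0.58) were all under 2-fold. The list was chosen with results of these data known. These counts and the median, like the counts for the whole family, include Trim5, Trim30b, Trim30c and Trim30d. Those genes met the threshold through the LPS-treated groups, so their rise was built into their choice.

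The largest rises were in the Trim30 genes, a mouse cluster whose best known product, TRIM30a, curbs NF-kappaB signalling by acting on the TAB2 and TAB3 subunits of the TAK1 complex. Trim30c stood at 0.362, 0.63, 0.36 and 0.376 CPM in the untreated libraries and at 37.5, 40.7, 38.4 and 39.4 CPM in the pool, a log2 fold of 6.47 (SE 0.106, adjusted p = 9.17e-53). Trim30b went from 0.227, 0.09, 0.309 and 0.167 CPM to 12.2, 12.9, 14.2 and 15.1 CPM (log2 fold 6.08, adjusted p = 1.76e-37), and Trim30d from 0.272, 0.54, 0.463 and 0.292 CPM to 25.7, 23.9, 24.1 and 24.5 CPM (log2 fold 5.96, adjusted p = 2.68e-45). All 3 were near zero without LPS, and no pool library overlapped an untreated one. These folds rest on few untreated reads, 38 for Trim30c, 17 for Trim30b and 34 for Trim30d over the 4 libraries together. Trim5, a mouse relative of the primate retroviral restriction factor TRIM5alpha, had 2, 0, 5 and 2 untreated reads and stood at 1.16, 1.52, 1.49 and 1.90 CPM in the pool (log2 fold 3.79, adjusted p = 6.84e-13). Trim30a was already present without LPS, at 24.0, 23.2, 26.1 and 22.04 CPM, and reached 263, 266, 259.8 and 267 CPM in the pool (log2 fold 3.47, adjusted p = 3.49e-66). The other rises in the list ran from 0.91 for Trim26 to 3.07 for Trim12a on the log2 scale.

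Sorting the LPS-treated cells showed that the list did not behave as 1 block. All 13 members were at least 2-fold above untreated in bystanders (median log2 fold 3.92) and at least 2-fold above untreated in responders (median 3.18). Both medians and both counts include Trim5, Trim30b, Trim30c and Trim30d, whose rise over untreated cells was built into their choice. With library totals in place of TMM, Trim25 (log2 fold 0.81) and Trim26 (0.63) were under 2-fold in responders. Over the whole family, bystanders against untreated gave 30 calls, 75% of the members against 67.1% of all genes, with 16 higher (34.1% of all genes) and 14 lower (32.9%). At 2-fold or more, 13 were higher (7.51%) and 2 lower (2.94%), and 30 had no overlap between groups (60.7%). Responders against untreated gave 36 calls, 90% against 75% of all genes, with 20 higher (36.5%) and 16 lower (38.5%). At 2-fold or more, 16 were higher (10.8%) and 4 lower (6.24%), and 36 had no overlap (69.2%). In responders against bystanders, 8 of the 13 were lower, 4 were higher and Trim5 had no call. Over the whole family 35 members were called between the gates, 87.5% against 70% of all genes. In responders 16 were higher, as were 34.7% of all genes tested, and 19 were lower, as were 35.3%. At a fold of at least 2 these counts were 3 (5.82% of all genes) and 2 (5.33%), and the median log2 fold was -0.12 over members and -0.01 over all genes. The numbers of members called in each direction thus lay near or above the share of all genes, and nothing particular to the family is read from them. The libraries of the 2 gates did not overlap for 31 members, against 63.9% of all genes.

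**Figure D1:**
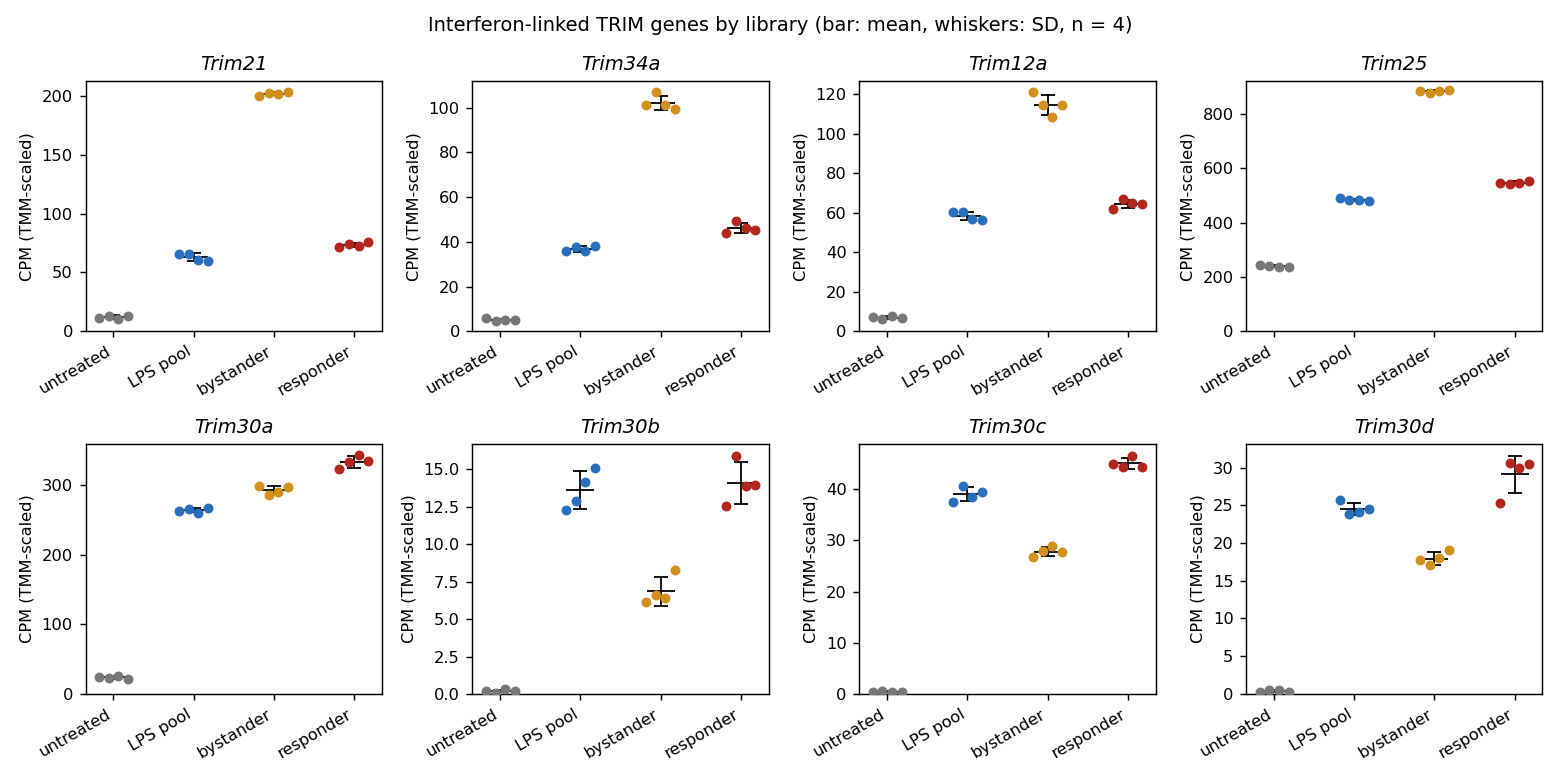
Levels of interferon-linked TRIM genes in CPM (TMM-scaled) in each of the 16 libraries, by group, 1 point per library with the group mean as a bar and the SD as whiskers (n = 4). Trim21 and Trim34a peak in bystanders, at means of 202 and 102 CPM, whereas Trim30b has its lowest LPS-treated level there, at 6.84 CPM.

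The 8 members that stood higher in bystanders were Trim21, Trim34a, Trim56, Trim26, Trim12a, Trim25, Trim14 and Trim12c. Trim21 encodes the cytosolic antibody receptor that sends antibody-coated virus to the proteasome. It stood at 200.3, 203, 202 and 203 CPM in bystanders, 71.6, 74.3, 72.4 and 75.7 CPM in responders, 65.7, 66.0, 60.9 and 59.8 CPM in the pool and 11.2, 13.4, 10.8 and 13.4 CPM in untreated cells. Every bystander library was above every responder library, and every LPS-treated library was above every untreated one. The responder level was 2.75-fold below the bystander level (log2 fold -1.46, SE 0.032, adjusted p = 1.19e-45). Trim34a, a SPRY member of the Trim5 neighbourhood, stood at 101, 107, 101 and 99.3 CPM in bystanders and 43.9, 49.5, 46.3 and 45.1 CPM in responders. Its responder level was 2.21-fold lower (log2 fold -1.14, SE 0.039, adjusted p = 3.39e-35), from a base of 4.41 to 5.80 CPM in untreated cells.

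The others of these 8 differed by less than 2-fold, and their gates did not overlap either. Trim56, which restricts RNA viruses and acts in the STING pathway, stood at 61.7, 63.9, 58.5 and 62.1 CPM in bystanders and 32.1, 31.9, 31.4 and 31.2 CPM in responders (log2 fold -0.96, adjusted p = 6.14e-27). Trim26 stood at 219.9, 213, 221 and 216 CPM in bystanders and 122, 118, 119 and 119 CPM in responders (log2 fold -0.86, adjusted p = 1.07e-37). Trim12a stood at 121, 115, 108 and 115 CPM in bystanders and 62.1, 67.2, 65.0 and 64.3 CPM in responders (log2 fold -0.82, adjusted p = 7.41e-30). For these 3 genes the responder libraries lay close to the pool, whose means were 26.5, 111 and 58.4 CPM. Trim25, the ligase known for ubiquitinating the RNA sensor RIG-I and for attaching ISG15, stood at 883 ± 4.62 CPM in bystanders, 547 ± 5.41 in responders, 483 ± 4.48 in the pool and 239 ± 3.63 in untreated cells (SD, n = 4). Its difference between gates was -0.69 on the log2 scale (adjusted p = 1.12e-40). Trim14, a member without a RING that serves as an adaptor in MAVS and cGAS signalling, and Trim12c each differed by -0.41 (adjusted p = 1.85e-15 and 1.79e-20).

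The Trim30 genes stood the other way. Trim30b was at 12.5, 15.9, 13.9 and 14.0 CPM in responders and 6.13, 6.61, 6.40 and 8.24 CPM in bystanders, 2.04-fold higher in responders (log2 fold 1.03, SE 0.0955, adjusted p = 8.94e-15). Trim30c was at 45.0, 44.4, 46.6 and 44.3 CPM in responders and 26.8, 27.9, 28.9 and 27.8 CPM in bystanders (log2 fold 0.69, adjusted p = 1.78e-20). Trim30d was at 25.4, 30.6, 29.9 and 30.5 CPM in responders and 17.7, 17.0, 17.97 and 19.0 CPM in bystanders (log2 fold 0.69, adjusted p = 4.56e-15). In all 3 every responder library exceeded every bystander library. Trim30a differed little, with 322, 332, 343 and 334 CPM in responders and 298, 286, 290.3 and 298 CPM in bystanders (log2 fold 0.18, adjusted p = 1.93e-10). Its direction depended on scaling: with library totals in place of TMM the difference was -0.0061 (adjusted p = 0.818). That scaling moved the median of all genes for responder against bystander from -0.01 to -0.20 on the log2 scale and the share of calls that were higher from 49.5% to 27.8%. The interferon-linked list then had 3 members higher and 8 lower. For the LPS pool against untreated it moved that median from -0.03 to -0.36 and the share of higher calls from 47.4% to 21.6%, and all 13 stayed higher. Trim5 stood at 1.85, 2.27, 2.74 and 1.96 CPM in responders and 1.95, 1.27, 1.47 and 1.89 CPM in bystanders, groups that overlap, and its log2 difference of 0.42 had a 95% interval of -0.06 to 0.89 (adjusted p = 0.112).

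Without the 6 libraries that hold Gap43 reads the 13 members again gave 4 higher and 8 lower. The log2 differences for responder against bystander were then -1.44 for Trim21, -1.14 for Trim34a, 1.20 for Trim30b, 0.81 for Trim30d and 0.73 for Trim30c. Within the 6 libraries alone, where responder 1 stood against bystander 3 and 4, they were -1.497, -1.19, 0.78, 0.46 and 0.67 in the same order. Responder 1 was the lowest responder library for Trim30d, at 25.4 CPM.

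Both directions occurred within 1 gene cluster. A stretch of 263 kb of chromosome 7 (GRCm38.p6, 104244448 to 104507853) holds 8 members in the order Trim34a, Trim5, Trim12a, Trim12c, Trim30b, Trim30c, Trim30a and Trim30d. The log2 differences for responder against bystander along it were -1.14, 0.42 with no call, -0.82, -0.41, 1.03, 0.69, 0.18 and 0.69. The members of the proximal side that had a call were thus lower in responders and the 4 Trim30 genes on the distal side higher, Trim30a only under TMM. Trim12c and Trim30b, the neighbours at which the sign changes, lie on the same strand with 104353358 as the last base of Trim12c and 104355398 as the first of Trim30b. Trim21 lies on the same chromosome (102557920 to 102565482, minus strand), outside the stretch. Close copies limit these values: 39.8% of the 50-base windows of Trim34a transcripts also occur in other genes, above all Trim34b, as do 36.3% for Trim5, 33% for Trim12c and 10.4% for Trim12a. For the Trim30 genes the share was 7.49% in Trim30d, 5.98% in Trim30a, 0.66% in Trim30c and 0.55% in Trim30b. How reads that fit several genes were handled is not given in the sources used here, so Trim34a, Trim5 and Trim12c are uncertain. Trim34b itself had a mean of at most 0.233 CPM in any group.

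**Figure D2:**
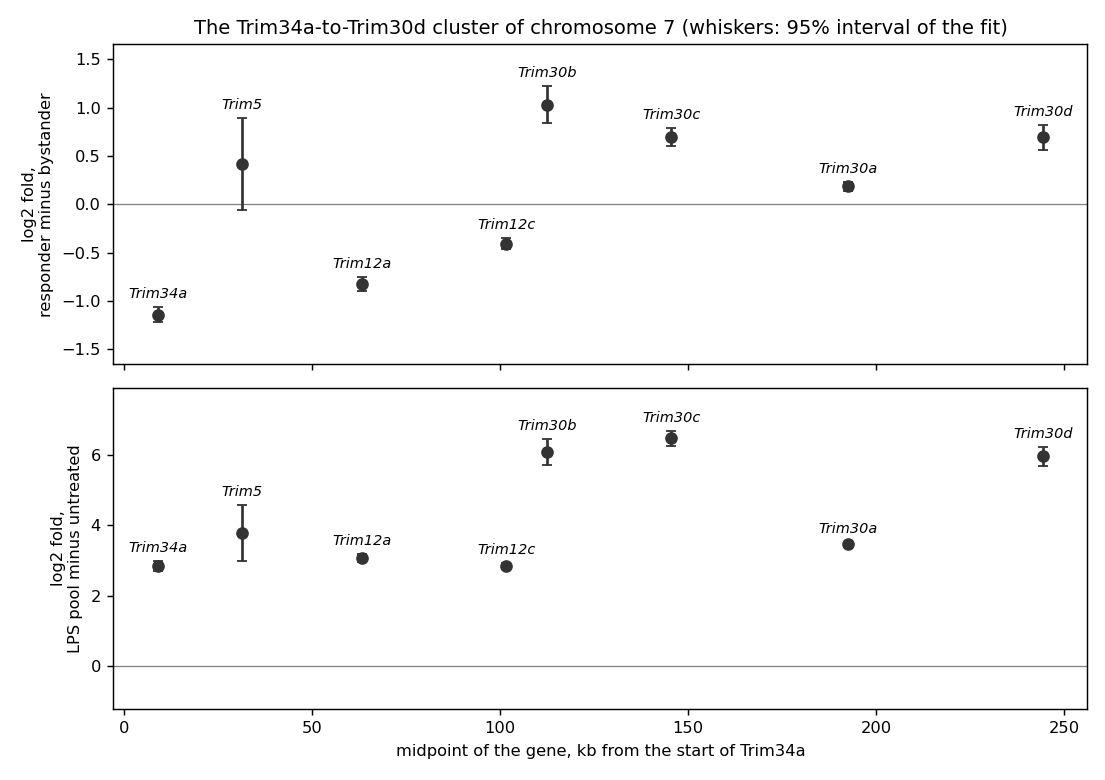
Log2 fold changes of the 8 TRIM genes of the chromosome 7 cluster against distance in kb from the start of Trim34a, for responder against bystander and LPS pool against untreated, with 95% intervals of the fit as bars. All 8 are above zero for the pool, from 2.85 to 6.47, while for responder against bystander Trim34a, Trim12a and Trim12c lie below zero and the Trim30 genes above it. For Trim5, Trim30b, Trim30c and Trim30d the rise in the pool was built into their choice.

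Promoter windows were examined because members of the list moved together with LPS and apart between gates. RefSeq windows (GRCm38.p6, 250 bases before to 50 after a gene's start) were matched for 30 of the 40 members. The interferon-stimulated response element, searched as GAAANNGAAA on both strands with overlapping matches allowed, occurred in 8 of 12 interferon-linked members with a window (Trim5, Trim12a, Trim12c, Trim21, Trim26, Trim30a, Trim30d and Trim34a) and in 0 of 18 other members. It occurs in 3.99% of all 27025 genes with a window and in 3.44% of all 32851 windows. Windows of Trim25, Trim56, Trim30b and Trim30c hold no such letters. Of the 8 with a match, all but Trim21 and Trim26 lie in the chromosome 7 cluster. The matched letters were identical in Trim5, Trim12a and Trim12c, and again in Trim30a and Trim30d. The 8 can therefore not be counted as independent occurrences. The gamma-activated site, searched as TTCNNNGAA, occurred in 1 of the 12 (Trim30c) and in 2 of the 18 (Trim45 and Trim46), against 9.55% of all genes and 8.3% of all windows. The kappaB motif occurred in 0 of the 12 and in 4 of the 18 (Trim7, Trim13, Trim28 and Trim46), against 9.55% of all genes and 8.46% of all windows. A match is a description of letters and was not tested as a site. Windows are given for Trim21 and Trim34a, with the largest differences toward bystanders, for Trim30c and Trim30b of the same gene cluster as Trim34a, which were higher in responders, and for Trim13, with the largest difference toward responders. Motif matches are in capitals.
Trim21, chr7:102565433-102565732, minus strand: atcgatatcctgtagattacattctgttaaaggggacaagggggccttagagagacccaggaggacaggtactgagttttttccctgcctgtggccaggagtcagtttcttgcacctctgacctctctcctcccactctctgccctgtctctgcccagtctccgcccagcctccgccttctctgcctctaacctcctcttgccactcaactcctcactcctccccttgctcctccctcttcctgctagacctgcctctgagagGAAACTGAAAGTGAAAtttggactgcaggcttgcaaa
Trim34a, chr7:104244207-104244506, plus strand: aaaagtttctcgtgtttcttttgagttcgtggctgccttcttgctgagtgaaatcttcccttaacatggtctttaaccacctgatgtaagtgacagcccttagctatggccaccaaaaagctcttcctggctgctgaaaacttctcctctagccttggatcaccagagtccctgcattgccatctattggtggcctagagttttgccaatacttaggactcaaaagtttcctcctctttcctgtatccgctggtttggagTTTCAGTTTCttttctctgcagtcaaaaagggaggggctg
Trim30c, chr7:104400729-104401028, minus strand: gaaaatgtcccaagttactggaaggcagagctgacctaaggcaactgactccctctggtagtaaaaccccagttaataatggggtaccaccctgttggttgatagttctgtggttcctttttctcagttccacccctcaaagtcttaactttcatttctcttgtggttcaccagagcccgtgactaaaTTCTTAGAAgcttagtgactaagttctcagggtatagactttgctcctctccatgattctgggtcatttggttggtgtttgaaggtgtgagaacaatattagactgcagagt
Trim30b, chr7:104358597-104358896, minus strand: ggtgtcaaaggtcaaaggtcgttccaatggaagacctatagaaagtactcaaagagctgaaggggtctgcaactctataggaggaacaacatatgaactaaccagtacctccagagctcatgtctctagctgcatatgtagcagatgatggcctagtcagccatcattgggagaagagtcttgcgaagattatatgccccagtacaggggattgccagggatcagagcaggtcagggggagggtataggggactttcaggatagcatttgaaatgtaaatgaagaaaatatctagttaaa
Trim13, first window, chr14:61597976-61598275, plus strand: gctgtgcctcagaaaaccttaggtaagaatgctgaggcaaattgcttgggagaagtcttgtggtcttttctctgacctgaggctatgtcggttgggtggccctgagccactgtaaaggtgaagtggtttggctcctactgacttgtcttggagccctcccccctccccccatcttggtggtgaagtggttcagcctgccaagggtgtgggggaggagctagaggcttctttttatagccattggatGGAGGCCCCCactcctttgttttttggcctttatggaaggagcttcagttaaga
Trim13, second window, chr14:61599262-61599561, plus strand: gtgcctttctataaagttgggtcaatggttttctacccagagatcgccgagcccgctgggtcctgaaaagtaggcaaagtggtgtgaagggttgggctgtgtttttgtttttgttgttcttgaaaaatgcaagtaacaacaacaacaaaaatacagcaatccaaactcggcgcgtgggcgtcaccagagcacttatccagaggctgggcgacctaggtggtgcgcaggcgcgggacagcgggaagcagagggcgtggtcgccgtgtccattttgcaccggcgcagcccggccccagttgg
In the Trim21 window 2 overlapping copies of the interferon element lie 13 to 28 bases after the start, and the Trim34a copy, on the opposite strand, lies 10 to 19 bases after it. The capitals of Trim30c mark a gamma-activated site, 62 to 54 bases before the start, and those of the first Trim13 window mark a kappaB match from 4 bases before to 5 after the start. The Trim30b window and the second Trim13 window hold no match to any of the 3 motifs.

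Outside the interferon-linked list, Trim13 differed most between gates. It encodes a ligase anchored in the endoplasmic reticulum by a transmembrane segment, known for its part in disposing of misfolded proteins there. It stood at 28.1, 29.8, 29.4 and 32.3 CPM in responders, 24.5, 25.8, 26.0 and 22.7 CPM in the pool, 6.87, 8.18, 6.99 and 6.93 CPM in bystanders and 6.57, 7.20, 7.61 and 6.93 CPM in untreated cells. The bystander libraries overlapped the untreated ones, and both lay far under the other groups. The responder level was 4.16-fold the bystander level (log2 fold 2.06, SE 0.072, adjusted p = 1.38e-34), and the pool was above untreated by 1.81 (adjusted p = 4.65e-31). Bystander against untreated gave 0.03 (adjusted p = 0.808), with a 95% interval of -0.15 to 0.21. Il1b, a marker of the inflammatory response, was at 7.79, 9.03, 64.1 and 65.1 CPM in the 4 bystander libraries and at 3177 to 3334 CPM in responders. The last pair, bystander 3 and 4, hold Gap43 reads, and Trim13 stood there at 6.99 and 6.93 CPM. A rise of Trim13 smaller than the bystander SD of 0.629 CPM would not show, and a link to Il1b was not tested. Within the 10 libraries without Gap43 reads the gate difference was 2.03. Trim13 shares 14.2% of its 50-base windows with Gm9359. The gene also overlaps Dleu2, whose levels were taken on library totals without TMM. Its means were 3.07 CPM in untreated cells, 3.60 in the pool, 3.02 in bystanders and 4.05 in responders. On that scale Trim13 stood at 8.27, 23.1, 7.40 and 26.8 CPM in the same order. The counting is not stated to use strand.

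Trim36 and Trim46, the C-I members, likewise had their highest means in responders. Trim36, whose product binds microtubules, stood at 4.42, 4.30, 4.28 and 4.01 CPM in responders and 1.83, 0.849, 1.67 and 0.861 CPM in bystanders, 3.25-fold apart (log2 fold 1.70, SE 0.231, adjusted p = 7.98e-08). In the pool it spread from 1.83 to 4.74 CPM and overlapped the untreated range of 1.21 to 2.11 CPM (log2 fold 1.28, adjusted p = 1.03e-05). Trim46, known from the bundled microtubules of the axon initial segment in neurons, stood at 10.2, 10.1, 10.2 and 10.7 CPM in responders and 6.47, 4.30, 6.17 and 5.12 CPM in bystanders (log2 fold 0.89, adjusted p = 1.04e-11). The gates did not overlap for either gene. Bystander against untreated had no call for Trim36 (-0.20, adjusted p = 0.519) or Trim46 (0.22, adjusted p = 0.0840). Trim46 overlaps Krtcap2, whose levels were taken on library totals without TMM. Its means were 103 CPM in untreated cells, 103 in the pool, 93.0 in bystanders and 96.9 in responders. On that scale Trim46 stood at 5.58, 8.84, 5.64 and 9.24 CPM in the same order. Without strand the counts of the pair are uncertain. Without the Gap43 libraries Trim36 differed by 1.63 between gates, and within them, with responder 1 as the only responder library, by 1.80.

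**Figure D3:**
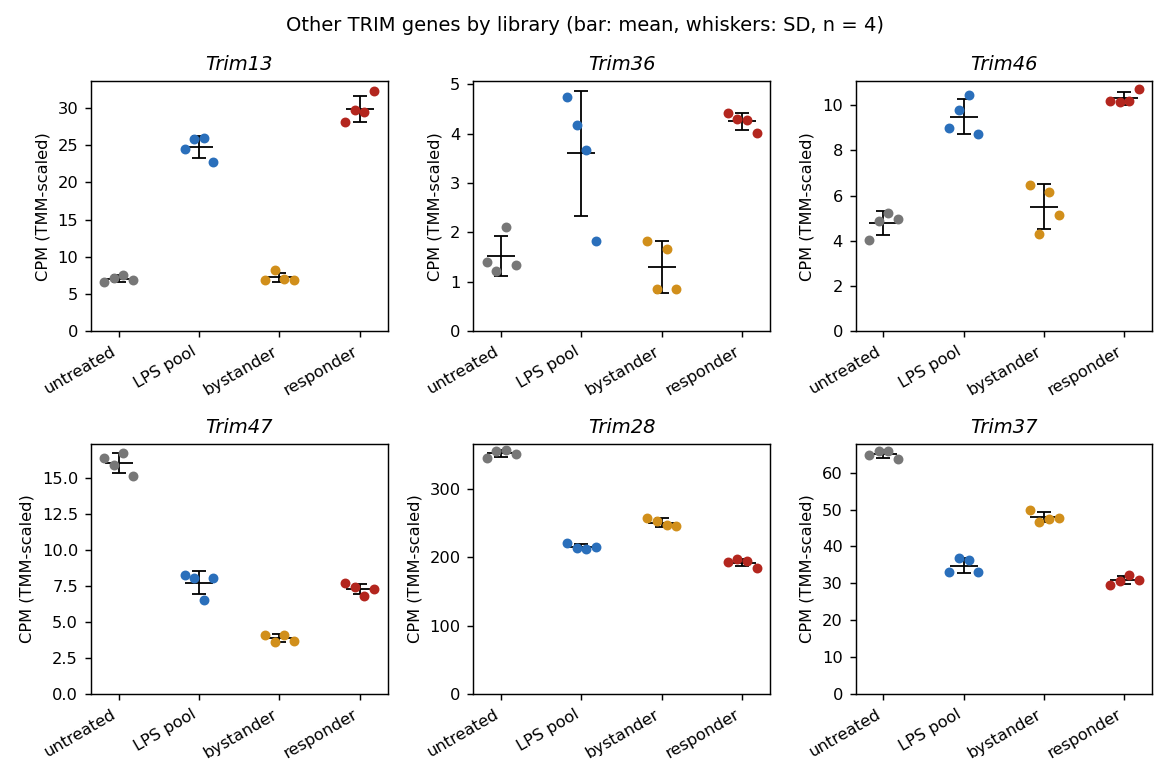
Levels of Trim13, Trim36, Trim46, Trim47, Trim28 and Trim37 in CPM (TMM-scaled) in each of the 16 libraries, by group, with mean (bar) and SD (whiskers), n = 4. Trim13 bystanders lie with untreated libraries near 7 CPM, Trim47 falls to a mean of 3.89 CPM in bystanders, and Trim28 and Trim37 are lowest in responders.

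Trim47, a SPRY member, fell with LPS and was lowest in bystanders. It stood at 16.4, 15.9, 16.7 and 15.2 CPM in untreated cells, 8.26, 8.07, 6.52 and 8.02 CPM in the pool, 4.12, 3.64, 4.11 and 3.69 CPM in bystanders and 7.71, 7.41, 6.82 and 7.28 CPM in responders. The untreated libraries lay above all others and the bystander libraries below all others. The log2 fold was -1.05 for the pool against untreated (adjusted p = 4.79e-17), -2.04 for bystanders against untreated (adjusted p = 1.24e-28) and 0.91 for responders against bystanders (adjusted p = 1.74e-11). Trim65, known as a ligase of the RNA sensor MDA5, shares 6.58% of the 50-base windows of Trim47 transcripts. It fell by 0.45 on the log2 scale in the pool (adjusted p = 8.69e-05). It had no call between gates (0.11, adjusted p = 0.392).

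The TIF1 group fell in the LPS pool in 4 of 4 members, a direction taken by 37.8% of all genes. In bystanders 3 of the 4 were lower than in untreated cells (32.9% of all genes), Trim24 having no call (-0.16, adjusted p = 0.269). Both counts include Trim66, which met the threshold through untreated cells, so its fall was built into its choice. Trim28, the corepressor that KRAB zinc finger proteins recruit to silence retroelements, stood at 345, 356, 356 and 351 CPM in untreated cells, 220.4, 214, 212 and 215 CPM in the pool, 258, 253, 246 and 245 CPM in bystanders and 192, 197, 195 and 184 CPM in responders. No group overlapped another. Trim28 was lower in the pool than in untreated cells by -0.71 on the log2 scale (adjusted p = 9.35e-37) and lower in responders than in bystanders by -0.38 (adjusted p = 1.06e-22). Trim33, which binds Smad proteins and holds Ifnb1 in check in mouse macrophages, changed by -0.55 and -0.31 (adjusted p = 3.89e-16 and 3.21e-08). Trim24, a cofactor of nuclear receptors, changed by -0.51 and -0.36 (adjusted p = 0.000781 and 0.0159). Trim66, the member found mainly in testis, fell from 1.90, 1.80, 2.52 and 1.71 CPM to 1.56, 0.949, 0.559 and 0.845 CPM in the pool (log2 fold -0.998, adjusted p = 0.000830). It had no call between gates (-0.32, adjusted p = 0.353). For Trim24 the gate call was lost without bystander replicate 4 (-0.31, adjusted p = 0.0571).

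Trim37 and Trim59 had the same order of groups as Trim28, with untreated highest, bystanders next and responders lowest. Trim37, the centrosomal ligase mutated in human mulibrey nanism, stood at 64.7, 65.8, 65.9 and 63.8 CPM in untreated cells, 33.0, 36.7, 36.3 and 33.1 CPM in the pool, 49.8, 46.6, 47.4 and 47.8 CPM in bystanders and 29.6, 30.7, 32.2 and 30.9 CPM in responders. Bystanders lay between untreated and the other groups with no overlap. Its log2 fold was -0.90 for the pool against untreated (adjusted p = 3.79e-28) and -0.63 for responders against bystanders (adjusted p = 3.37e-20). Ppm1e, which overlaps Trim37, moved alike. On library totals without TMM its means were 10.4 CPM in untreated cells, 4.76 in the pool, 8.90 in bystanders and 4.33 in responders. Reads of the pair cannot be told apart without strand. Trim59, a transmembrane member, stood at 49.7, 57.1, 52.1 and 52.1 CPM in untreated cells, 24.4, 24.2, 24.3 and 25.8 CPM in the pool, 29.8, 30.7, 29.2 and 29.6 CPM in bystanders and 18.2, 20.9, 25.0 and 21.2 CPM in responders. It had the largest fall of any member in the pool (log2 fold -1.10, adjusted p = 1.78e-24), and responders were below bystanders by -0.48 (adjusted p = 4.22e-10), with responder 3 the closest.

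Of the members without an assigned C-terminal domain, Trim29, which lacks a RING, and Trim44, a ubiquitin-protease-like member, fell in the pool by 0.50 and 0.38 and were lower in responders than in bystanders by -0.63 and -0.17 (adjusted p = 2.18e-06 and 4.06e-05). Trim8, known for promoting TAK1 ubiquitination, was higher in responders than in bystanders by 0.31 (adjusted p = 1.24e-13), with a mean of 108 CPM against 86.9 CPM. Its pool value was -0.08 (adjusted p = 0.0267), a call lost without untreated replicate 2, 3 or 4 or pool replicate 3 (adjusted p = 0.0502 to 0.325). Of the NHL members, Trim32, whose human form is mutated in a limb-girdle muscular dystrophy, was higher in responders by 0.30 (adjusted p = 1.52e-06). Trim3 was higher by 0.16 (adjusted p = 0.0470), a call that library totals turn to -0.03. In the single-domain classes, Trim23, which carries an ARF GTPase domain, and Trim45, which carries a filamin repeat, were higher by 0.21 and 0.23 (adjusted p = 0.0371 and 0.0476).

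The remaining SPRY members split. Higher in responders than in bystanders were Trim35 by 0.51 (adjusted p = 1.30e-23), Trim27 by 0.27 (adjusted p = 2.04e-07) and Trim41 by 0.13 (adjusted p = 0.00250), the last turned to -0.06 by library totals. Library totals also ended the calls between gates of Trim27 (0.07, adjusted p = 0.113), Trim32 (0.11, adjusted p = 0.0665), Trim23 (0.02, adjusted p = 0.831) and Trim45 (0.04, adjusted p = 0.734). Lower in responders were Trim62 by -0.61 (adjusted p = 0.0116), Trim68 by -0.50 (adjusted p = 0.000891), Trim16 by -0.42 (adjusted p = 1.01e-07) and Trim39 by -0.31 (adjusted p = 2.08e-05). The call of Trim62 was lost without responder replicate 3 (-0.46, adjusted p = 0.0729). Trim16, a galectin-binding member in the response to damaged lysosomes, stood at 20.4 ± 1.09 CPM in bystanders against 15.2 ± 0.999 in responders, 13.5 ± 1.07 in the pool and 12.99 ± 0.495 in untreated cells. Trim7, known to bind glycogenin, and Trim11 had no call (-0.06, adjusted p = 0.679, and 0.05, adjusted p = 0.339). Together with Trim5, Trim65 and Trim66 these made the 5 members with no call between gates.

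**Figure D4:**
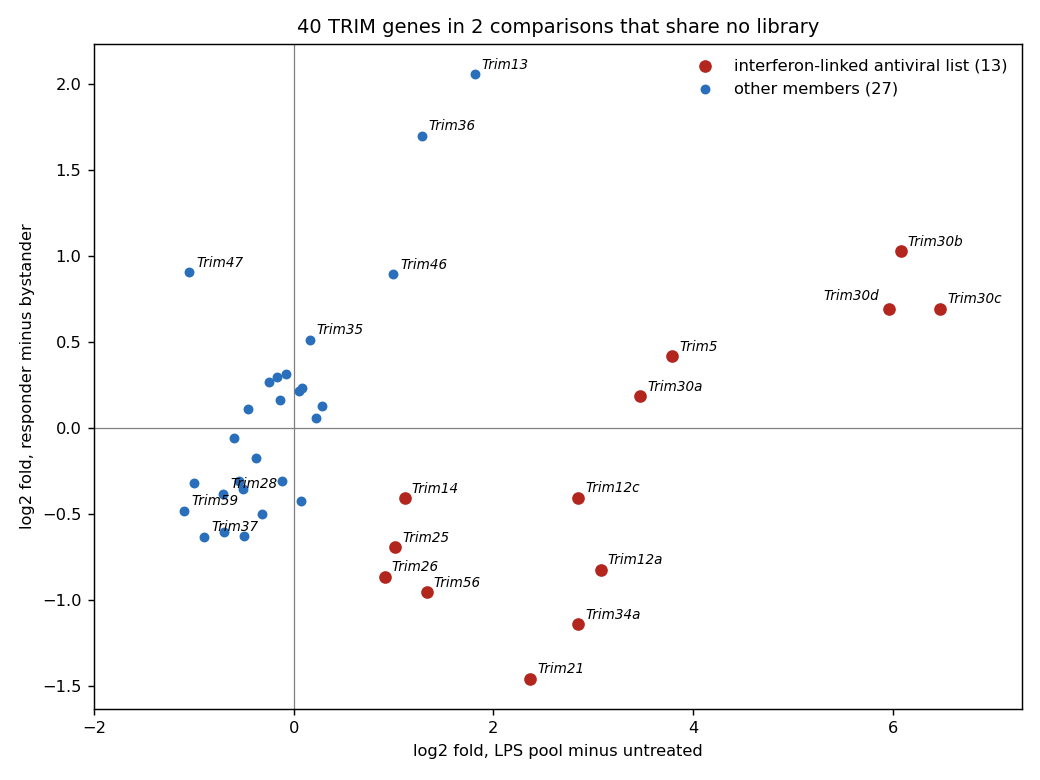
Log2 fold change for responder against bystander (vertical) against LPS pool against untreated (horizontal), 1 point per member (40), with the interferon-linked members marked. The interferon-linked members lie to the right, 8 below zero on the vertical axis with a call and the Trim30 genes above it, and Trim13 is highest at 2.06.

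Read across both comparisons, which share no library, 9 members were higher in the pool than in untreated cells and higher in responders than in bystanders: Trim13, Trim30a, Trim30b, Trim30c, Trim30d, Trim35, Trim36, Trim41 and Trim46. Another 8, all from the interferon-linked list, were higher in the pool and lower in responders. Lower in both were 9: Trim24, Trim28, Trim29, Trim33, Trim37, Trim44, Trim59, Trim62 and Trim68. Lower in the pool and higher in responders were 4: Trim8, Trim27, Trim32 and Trim47. With library totals Trim30a, Trim35 and Trim41 left the first of these groups, and Trim27 and Trim32 the last. Trim35 then joined the last (-0.17 in the pool, 0.32 between gates). Trim16 (-0.26 and -0.61) and Trim39 (-0.45 and -0.50) joined those lower in both.

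Against the pool, responders differed little and bystanders more. In responders 18 members were called, 45% against 25.5% of all genes, with 14 higher (16%) and 4 lower (9.49%). None reached 2-fold (0.0715% of all genes higher and 0.302% lower), groups did not overlap for 15 members (23.6%), and the largest size was the 0.55 of Trim5, which had no call (adjusted p = 0.0979). In bystanders 34 were called, 85% against 67% of all genes, with 20 higher (34.1%) and 14 lower (32.9%), and groups did not overlap for 29 (59.4%). At 2-fold or more 3 were higher (4.07% of all genes) and 2 lower (4.92%): Trim21 (1.67), Trim34a (1.46) and Trim56 (1.20) stood above the pool, and Trim13 (-1.79) and Trim36 (-1.48) below it. Trim12a, Trim12c, Trim14, Trim21, Trim25, Trim26, Trim30a, Trim34a and Trim56 were higher than in the pool in both gates, in responders by 0.10 to 0.33 on the log2 scale. With library totals the responder calls of Trim12a (0.09, adjusted p = 0.0988) and Trim26 (0.05, adjusted p = 0.231) were lost.

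**Figure D5:**
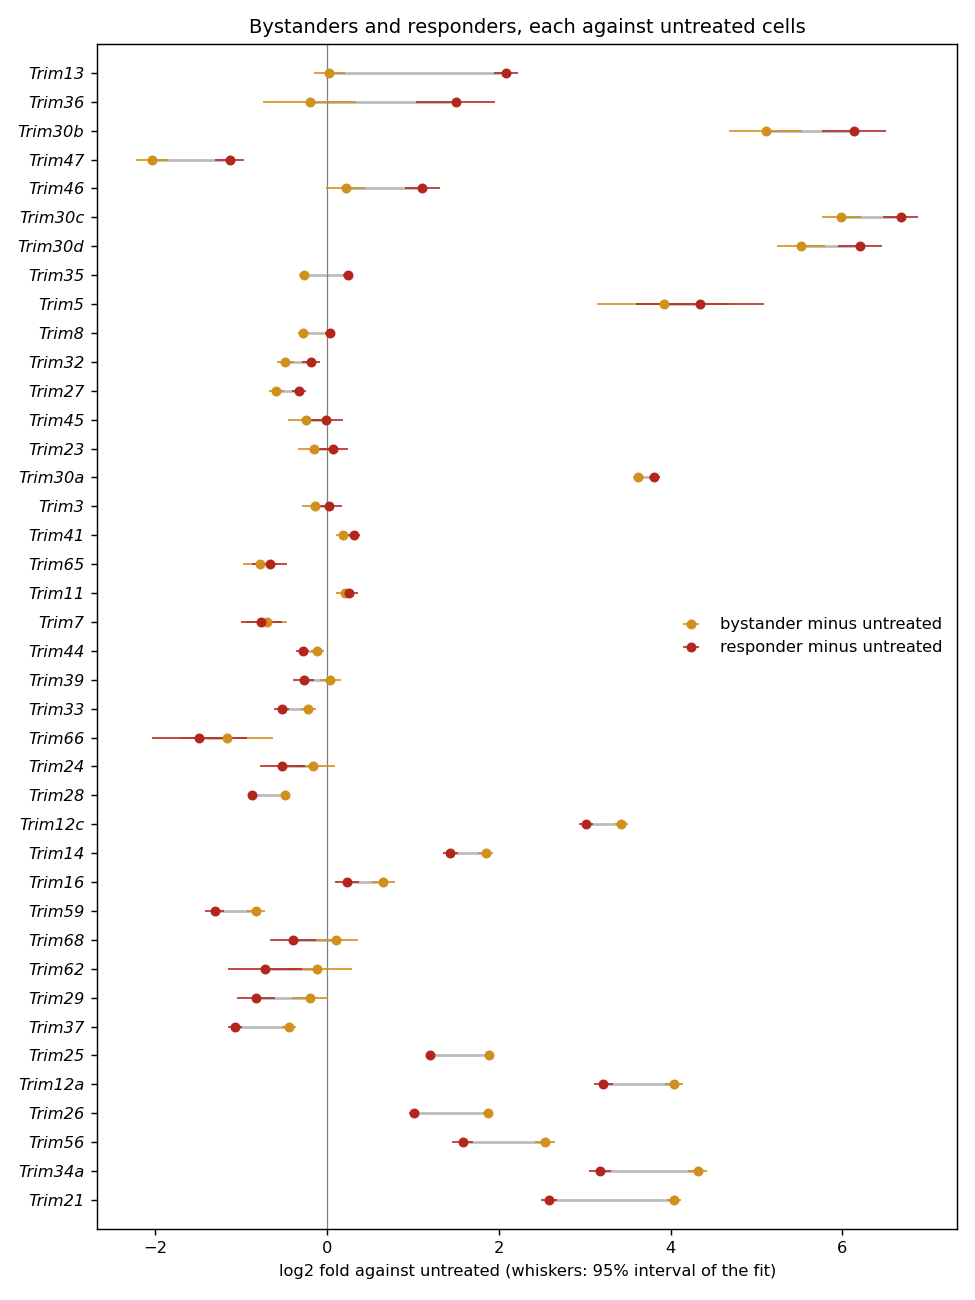
Log2 fold change of each of the 40 members against untreated cells, for bystanders and for responders, members ordered by the difference between gates, with 95% intervals of the fit as bars. The interferon-linked members lie to the right of zero in both gates, while Trim13, Trim36 and Trim46 lie to the right in responders alone with a call.

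Genes that work with TRIM proteins were read from lists chosen like the class lists. Their counts stand against 34.1% of all genes higher and 37.8% lower in the pool, and 34.7% higher and 35.3% lower between gates. Of 11 genes of type I interferon signalling, 11 were higher in the pool and, between gates, 7 were higher in responders and 4 lower (5 and 5 with library totals). Socs1, the inhibitor of JAK kinases, was the lowest at 80.2 ± 3.45 CPM in bystanders and 13.2 ± 0.461 in responders (log2 fold -2.60), and Tyk2, one of those kinases, the highest at 68.8 ± 1.35 and 156 ± 2.50 CPM (log2 fold 1.18). Of 8 genes of DNA sensing, all 8 were higher in the pool, and between gates 5 were higher and 3 lower in responders (3 and 3 with library totals). Sting1, the adaptor that TRIM56 acts on, was lower in responders by -0.87 and Cgas by -0.77, while Ifi204 was higher by 0.61. The largest difference of this list was that of Zbp1, a sensor of Z-form nucleic acids under the 5 CPM used for naming, at means of 3.23 CPM in responders and 1.38 CPM in bystanders (log2 fold 1.24, adjusted p = 3.85e-07). Of 17 tested genes of RNA sensing, 9 were higher and 4 lower in responders (7 and 8 with library totals), from -0.80 for the antiviral zinc finger gene Zc3hav1 to 2.41 for the kinase gene Ikbke. The ISG15 conjugation list gave 5 of 6 higher, with bystanders holding 343 ± 15.1 CPM of Isg15 itself and responders 662 ± 14.6 CPM (log2 fold 0.94), the opposite side from Trim25. Of the 5, Herc6 was higher by 0.16, a size near the shift of the all-gene median with library totals (from -0.01 to -0.20).

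TRIM genes that carry other symbols gave 4 tested genes, of which Pml (TRIM19, the organiser of PML nuclear bodies) and Mid1 (TRIM18) were lower in responders by -0.75 and -1.03. Among 10 genes of PML bodies 4 were higher and 5 lower in responders than in bystanders (2 and 8 with library totals), with Daxx at -0.93. Of 18 partners of the TRIM28 corepressor, 14 were lower in the pool and 4 higher, and 10 were lower and 4 higher in responders than in bystanders (14 and 2 with library totals), beside 35.3% of all genes lower and 34.7% higher. Resf1, a factor in retroelement silencing, gave -1.53 and the deacetylase gene Hdac1 gave 0.61. Of 12 genes of the TAK1 and NF-kappaB complexes, 5 were higher and 5 lower (4 and 7 with library totals), from -1.07 for Ripk1 to 2.73 for Nfkbia, the inhibitor that NF-kappaB itself induces. Of 14 ubiquitin E1 and E2 enzymes, 10 were higher and 1 lower (7 and 3 with library totals). Of 8 genes of the antibody and proteasome route of TRIM21, 5 were higher and 1 lower (1 and 3 with library totals). No member of these last lists named by the rule differed by 2-fold, the extremes being Ube2d1 at -0.32 and Ube2e2 at 0.79.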

How the data were processed

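RNA was sequenced from 16 libraries of 1 macrophage line in 4 groups of 4, grouped by their labels. The authors deposited raw read counts per gene. The submitters' processing notes name GRCm38 (mm10), read trimming tools (fastp 1.1.0 and cutadapt 3.7), featureCounts 2.1.1, and the aligner HISAT2 2.2.2. Annotation, strandedness and handling of multiply mapped reads: not given in the sources used here. Of 27179 gene identifiers, 25275 were matched to symbols through the RefSeq table of GRCm38.p6, and the other 1904, with 0.399% of the counts, stayed in the fit. The table had 3 empty columns.

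The model was edgeR's (version 4.0.16, under R 4.3.3), with filterByExpr, TMM scaling, and a robust quasi-likelihood model with 1 mean per group over all 16 libraries. Tests were two-sided with Benjamini-Hochberg adjustment over 12589 genes, called under 0.05. The median biological coefficient of variation was 0.0344. The fit was tested on simulated data. DESeq2 1.42.0 was an alternative, as were other scalings, filters and library sets. Replicates of a group differed by more than sampling noise, the chi-square per degree of freedom being 1.61 to 3.13 over 24 pairs, so none was counted as a duplicate.

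Members and lists were chosen with earlier results of these data known. Every member is named. Per-library values are given for the 5 members at each end of the fold order, between gates and for pool against untreated, and for members a result turns on. Partner genes are taken from each list's ends of the same order between gates, 2 from each end, at 5 CPM or more. Same-numbered libraries of responders and bystanders gave correlations of residuals from -0.43 to 0.24. Responder 1 gave 0.43 and 0.48 with bystander 3 and 4, which share its Gap43 reads, and -0.43 with both bystander 1 and 2. The correlations thus follow the Gap43 libraries and cannot decide whether the numbers pair those groups. All 4 same-numbered pairs exceeded 0.1 for untreated with responder and for pool with bystander. The labels name no shared culture or day, and the same libraries share Gap43 reads. Exon lengths and shared windows came from GENCODE M21.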

Additional observations from a re-analysis of the deposited data

Results flagged for a closer look

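In 11 of 160 sets of 4 libraries (40 genes in 4 groups), 1 library stood apart from the other 3 by more than Dixon's critical value for 4 samples, where about 1 in 20 sets is flagged when nothing differs. Bystander replicate 2 was high for Trim12c (157 CPM) and Trim13 (8.18 CPM), and bystander replicate 4 was high for Trim39 (24.9 CPM). Bystander replicate 3 was high for Trim65 (6.40 CPM). In the LPS pool, replicate 4 was high for Trim59 (25.8 CPM), and replicate 3 was low for Trim47 (6.52 CPM) and high for Trim62 (1.86 CPM). In responders, replicate 1 was low for Trim30d (25.4 CPM), replicate 4 was high for Trim46 (10.7 CPM) and replicate 3 was high for Trim24 (4.08 CPM). Untreated replicate 2 was high for Trim30c (0.63 CPM).

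Trim35 moved in opposite directions in the gates. Against untreated cells at 118 ± 2.09 CPM it was higher in responders (140 ± 3.22 CPM, log2 fold 0.24) and lower in bystanders (98.2 ± 3.90 CPM, log2 fold -0.27). The test of the difference gave 0.51 (edgeR's quasi-likelihood test, adjusted p = 1.30e-23), with all 4 responder libraries above and all 4 bystander libraries below the untreated range. With library totals the responder value became -0.14, so the opposite directions depend on scaling, and the difference between gates kept its sign and call but became 0.32 (adjusted p = 1.03e-14).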

How the results depend on the processing

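The counts of members called at any size kept within 1.5 times of the values given, with 3 exceptions. With library totals alone, 9 members were higher in responders than in bystanders. In the 6 libraries with Gap43 reads alone, 7 were higher and 2 lower in responders than in the pool. Counts at 2-fold or more moved further with library totals: members lower became 6 for pool against untreated, 5 for responder against bystander and 9 for responder against untreated, and members higher in bystanders than in the pool became 6. Members at least 2-fold lower than untreated became 1 in the pool without pool replicate 3, and 1 in the pool and 1 in bystanders in the 10 libraries without Gap43 reads. The other counts at 2-fold kept within 1.5 times. Library totals also reversed single members: for responder against bystander Trim30a (-0.0061), Trim41 (-0.064), Trim11 (-0.14) and Trim3 (-0.026), and for pool against untreated Trim35 (-0.17), Trim41 (-0.041), Trim11 (-0.11), Trim16 (-0.26), Trim23 (-0.27) and Trim45 (-0.24). In those alternatives the cause was not tested beyond the shift in the median of all genes.

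Some calls near the threshold changed when 1 library was left out, for several members whichever of a number of libraries it was. For responder against bystander, Trim3 was lost without bystander replicate 1, 2 or 4 or responder replicate 1, 2 or 4 (adjusted p = 0.0518 to 0.178). Trim23 was lost without bystander replicate 1, 3 or 4 or responder replicate 1, 2 or 3 (adjusted p = 0.0515 to 0.111), and Trim45 without replicate 1 or 4 of either gate (adjusted p = 0.0597 to 0.178). For pool against untreated, Trim68 was lost without untreated replicate 1, 3 or 4 or pool replicate 1 or 3 (adjusted p = 0.0521 to 0.170), and Trim39 gained a call without pool replicate 3 (adjusted p = 0.00332). DESeq2 gave the same call for 37 of 40 members between gates and for 38 of 40 in the pool.

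With the replicate number as a block, 15 members were higher and 19 lower in responders than in bystanders, Trim45 losing its call (adjusted p = 0.0515). Against the pool, Trim29 lost its call in responders (adjusted p = 0.0507). The block changed no call for untreated with responder or for pool with bystander, the pairs whose numbers correlate. The planned split by summed neural markers was not run because the sums did not separate the libraries, and the split by Gap43 reads, and the block within 2 groups, were chosen after seeing the data. Depth limits Trim5, Trim30b, Trim30c and Trim30d in untreated cells, where 9 to 38 reads in all stand behind each mean.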

Other observations

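Trim2, an NHL-repeat member known from neurons and just under the threshold, had 21 reads in untreated replicate 1, 18 and 20 in pool replicates 3 and 4, 18 and 28 in bystander replicates 3 and 4 and 20 in responder replicate 1. These are the 6 libraries with Gap43 reads. In the other 10 libraries it had 1 to 13 reads. Trim15, a SPRY gene also under the threshold, stood at 0.916, 0.727, 0.854 and 1.02 CPM in bystanders and at no more than 0.333 CPM in any responder library, a gap noticed after its values were seen and given with no test.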
